A study of Caenorhabditis elegans with 18 samples.

Results

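The genes described here encode the hydrolases that act in the lysosomes and in the gut lumen of Caenorhabditis elegans, together with the proton pump that acidifies these spaces. They were chosen by name and level, as the genes whose WormBase symbol starts with cpr-, cpl-, cpz-, asp-, lipl- or vha- and whose mean normalized count over the 18 libraries was at least 10. Earlier results of these data were known when the choice was made. Of 56 genes with such a symbol, 48 met the minimum and are members, among 13472 genes tested and 24998 in the table. They comprise 10 cysteine cathepsins (*cpl-1*, *cpr-1*, *cpr-3* to *cpr-6*, *cpr-8*, *cpr-9*, *cpz-1* and *cpz-2*), 11 aspartyl proteases (*asp-1* to *asp-6*, *asp-8*, *asp-12* to *asp-14* and *asp-17*), 7 lipases (*lipl-1* to *lipl-7*) and 20 subunits of the vacuolar proton pump, the V-ATPase (*vha-1* to *vha-20*). The 8 genes below the minimum were *asp-7*, *asp-9*, *asp-15*, *asp-16*, *asp-18*, *asp-19*, *cpr-2* and *lipl-8*. The members just inside it, *lipl-3* and *lipl-6*, averaged 13.3 and 14.5 normalized counts, and the nearest genes outside it, *cpr-2* and *asp-9*, averaged 2.77 and 2.44.

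PolyA RNA of whole hermaphrodites on day 1 of adulthood was sequenced in 6 genotypes with 3 libraries each, described by the study as independent biological replicates. The genotypes were *lin-29(n333); fbxl-5(rhd43)* (strain DLS492), *lin-29(n333)* (MT333), *rict-1(mg360); fbxl-5(rhd43)* (DLS491), *rict-1(mg360)* (DLS490), *fbxl-5(rhd43)* (DLS316) and wild-type animals (N2), each of them 1 strain. All were grown for about 72 h at 20 °C from synchronized L1 larvae, at 5000 animals per plate, on E. coli OP50. *fbxl-5* encodes an F-box protein and rhd43 is a nonsense mutation, *lin-29* encodes the hypodermal transcription factor of the larval to adult switch, and *rict-1* encodes Rictor, the subunit that defines the mTORC2 kinase complex, for which mg360 is a missense allele that may leave some activity. The series asks what loss of *fbxl-5* changes in wild-type, heterochronic and mTORC2 mutant animals, so each double mutant was compared with its single mutant and with wild-type, and each single mutant with wild-type.

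In the worm, the intestine is at once the digestive organ, the main fat store and the site of yolk protein synthesis, and its cells are rich in acidic lysosome-related organelles. Cathepsins are made as inactive precursors that mature at low pH: the cysteine cathepsins belong to the B (cpr), L (cpl) and Z (cpz) types and the asp genes to the cathepsin D and pepsin type, and many are secreted into the gut lumen as well as sorted to lysosomes. The lipl genes encode acid lipases that release fatty acids from stored fat in lysosomes, several of them known to be switched on by fasting through the TFEB homologue HLH-30. The V-ATPase couples ATP hydrolysis in its cytosolic V1 sector to proton transport through its membrane V0 sector, and the subunit that is encoded by several genes with different tissue distributions, the a subunit, sets where the pump is placed.

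The libraries held 13434120 to 29733059 reads counted on genes. *fbxl-5(rhd43)* replicate 3 stood apart by its 29.97% of reads from ribosomal RNA genes, against 0.0729% to 4.49% in the other 17 libraries, and *lin-29; fbxl-5* replicate 3 often lay apart from replicates 1 and 2 in the values below. The *lin-29*, *rict-1* and *fbxl-5* transcripts check no label here, since point mutations need not lower them: *fbxl-5* had 139, 138 and 141 normalized counts in *fbxl-5(rhd43)*, against 86.5, 110.1 and 88.1 in wild-type. Among marker lists fixed alongside the members, 7 of 8 molting genes, 4 of 5 hypodermal genes (with 1 lower) and 3 of 3 muscle genes were higher in *lin-29* than in wild-type. So were 4 of 6 sperm and 3 of 5 pharyngeal gland markers, while 3 of 5 oocyte markers were lower. The hypodermal list summed lower in *lin-29*, to 4670 to 7907, against 12625 to 18169 in wild-type. The molting list summed to 7893 to 16156 in *lin-29; fbxl-5*, 7824 to 27814 in *lin-29*, 2281 to 3614 in *rict-1; fbxl-5* and 3255 to 4348 in *rict-1*, against 1054 to 1896 in wild-type. In *rict-1*, 4 of 8 molting genes were higher. The part of these cells and of a molt in the values below was not tested. The intestinal marker list is given beside some of the results below. With whole-animal RNA, fewer cells of a type and less RNA per cell cannot be told apart.

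The values are the normalized counts that the authors deposited, that is reads per gene divided by a library size factor, and fold changes come from limma on log2(value + 1) with 1 mean per genotype and all 18 libraries in the fit. A gene was called at an adjusted p below 0.01 (Benjamini-Hochberg, over all 13472 genes). The 5 comparisons against wild-type share the same 3 wild-type libraries, and each comparison of a double mutant with its single mutant shares the single mutant's libraries with that mutant's comparison against wild-type, so their values are set side by side only.

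In *rict-1(mg360)*, 18 of 48 members were higher than in wild-type and 1 was lower, where the calls over the whole table were 10.7% higher and 5.78% lower. The calls comprised 5 higher and 1 lower of 10 cysteine cathepsins, 5 of 11 aspartyl proteases, 4 of 7 lipases and 4 of 20 V-ATPase subunits, and the median log2 fold change was 0.31 over the members and -0.03 over all genes tested. In *rict-1; fbxl-5*, 13 members were higher than in wild-type and 0 lower (7.36% and 3.56% of all genes), with 4 cysteine cathepsins, 4 aspartyl proteases, 3 lipases and 2 V-ATPase subunits. At an unadjusted p below 0.05, 25 of 48 members and 4926 of 13472 genes differed between *rict-1; fbxl-5* and wild-type. edgeR and DESeq2 called 14 and 15 members, all higher, and without wild-type replicate 1 the count was 8. Over all genes, these fits called 1466, 2254 and 855, against 1471 in the main fit.

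In *lin-29(n333)*, 11 members were higher than in wild-type and 2 lower, where 22.6% and 18.4% of all genes were called, so that the share of members called higher, unlike in *rict-1*, was near that of all genes. The 11 were 4 cysteine cathepsins, 2 aspartyl proteases and 5 of the 7 lipases, and the 2 lower were V-ATPase subunits. Of these lipases, *lipl-3* and *lipl-6* averaged below 10 outside the *lin-29* libraries. They became members only through the group where they were high, so their calls there are no independent support. In *lin-29; fbxl-5*, 6 members were higher than in wild-type and 20 lower (19.5% and 19.5% of all genes), and 16 of the 20 lower ones were V-ATPase subunits. In all 26 members were called, and this total was 16 (12 of them lower) without wild-type replicate 2, 15 (11 lower) without *lin-29; fbxl-5* replicate 2, and 10 (5 lower) when only the 2 genotypes compared were fitted. Over all genes, these fits called 4213, 4092 and 3347 in that order, against 5250 in the main fit. The last of them comprised 2023 higher and 1324 lower.

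With *fbxl-5(rhd43)* added to *lin-29(n333)*, 16 members were lower than in *lin-29* and 0 higher, where 4.5% of all genes were called lower and 1.32% higher. These were 4 cysteine cathepsins, 4 aspartyl proteases, 2 lipases and 6 V-ATPase subunits, and 44 of 48 members had a negative log2 fold change, with a median of -0.39 against -0.03 over all genes. edgeR and DESeq2 called 14 and 18 lower and 0 higher. Over all genes they called 610 and 871 lower and 186 and 334 higher. Without *lin-29; fbxl-5* replicate 3 the count was 29, and with only the 2 genotypes in the fit it was 2. Over all genes, these fits called 940 and 63, against 784 in the main fit. With *fbxl-5(rhd43)* added to *rict-1(mg360)*, 4 members were lower than in *rict-1* and 0 higher (1.06% and 0.327% of all genes). With the replicate number as a block, this count was 4 in the fit of all libraries and 15 (5 higher and 10 lower) in the fit of these 2 genotypes, and it was 2 without *rict-1* replicate 3, *rict-1; fbxl-5* replicate 1 or *rict-1; fbxl-5* replicate 2. Over all genes, the block fit of these 2 genotypes called 508 higher and 847 lower. DESeq2 called 5, of which *asp-17* was higher.

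In *fbxl-5(rhd43)* alone, limma called 0 of 48 members higher and 0 lower than in wild-type, where 0.586% and 1.97% of all genes were called. At an unadjusted p below 0.05, 10 of 48 members and 3243 of 13472 genes differed. edgeR also called 0 members, and DESeq2 called *cpl-1* higher and *asp-8* lower. Over all genes, edgeR and DESeq2 called 300 and 834. Fitted with wild-type only, 9 members were called, 4 higher and 5 lower. Over all 13472 genes, that fit called 734 higher and 1154 lower, against 79 and 266 in the main fit.

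On average, the aspartyl proteases took the largest share of the reads outside ribosomal RNA among the families in every genotype. They took 1.83 ± 0.0787% of reads in *rict-1; fbxl-5* and 2.61 ± 0.294% in *rict-1*, against 0.696 ± 0.0751% in wild-type (SD, n = 3 each). The share was 0.657 ± 0.413% in *lin-29; fbxl-5*, 0.882 ± 0.0775% in *lin-29* and 0.590 ± 0.0145% in *fbxl-5*. The cysteine cathepsins took 0.677 ± 0.0530% of reads in *rict-1*, against 0.494 ± 0.0502% in wild-type, and the V-ATPase subunits 0.504 ± 0.0362% against 0.445 ± 0.0165%. The lipases were scarce throughout, at 0.0434 ± 0.00263% of reads in *rict-1* and 0.0452 ± 0.00556% in *lin-29*, against 0.0201 ± 0.00146% in wild-type. Per kilobase of exon, the highest wild-type levels were those of *asp-1* and *asp-6*, at 37386 and 28169 normalized counts per kb, followed by *cpr-9* at 24068, *cpl-1* at 23874 and *cpr-6* at 21089, and the lowest was that of *lipl-6* at 1.68.

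Among the aspartyl proteases, *asp-1*, *asp-2*, *asp-3*, *asp-5* and *asp-6* rose in *rict-1(mg360)*, and *asp-1*, *asp-3*, *asp-5* and *asp-6* stayed called in *rict-1; fbxl-5*. *asp-1*, a cathepsin D-like protease of intestinal cells, had 123271, 113738 and 111953 normalized counts in *rict-1; fbxl-5* and 160394, 190083 and 158498 in *rict-1*, against 40288, 50903 and 42390.1 in wild-type. The 3 groups did not overlap, with *rict-1* highest. The fold changes against wild-type were 2.61 in *rict-1; fbxl-5* (log2 fold change 1.39, standard error 0.27, adjusted p = 0.00203) and 3.81 in *rict-1* (log2 fold change 1.93, standard error 0.27, adjusted p = 7.61e-05). *asp-6*, a further gene of the family, reached 130727, 113458 and 112967 in *rict-1; fbxl-5* and 176247, 196888 and 171053 in *rict-1*, against 33086, 39008 and 35651 in wild-type. Its log2 fold changes were 1.73 in *rict-1; fbxl-5* (standard error 0.26, adjusted p = 2.55e-04) and 2.34 in *rict-1* (adjusted p = 7.28e-06). Per kilobase of exon, *asp-1* and *asp-6* were the highest members in *rict-1*, at 142450.0 and 142271 normalized counts per kb.

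*asp-5* had the largest fold change of the family in *rict-1*. It had 38213, 30993 and 32739.9 normalized counts in *rict-1; fbxl-5* and 67090.2, 77460.2 and 66554 in *rict-1*, against 9389, 11889.6 and 9825 in wild-type. The mean was 3.28-fold higher in *rict-1; fbxl-5* (log2 fold change 1.71, standard error 0.34, adjusted p = 0.00228) and 6.79-fold higher in *rict-1* (log2 fold change 2.77, standard error 0.34, adjusted p = 2.43e-05). Here too the 3 groups did not overlap and *rict-1; fbxl-5* lay between *rict-1* and wild-type. *asp-3*, an intestinal and neuronal protease that with *asp-4* takes part in necrotic cell death, had 86832, 75232 and 80108 in *rict-1; fbxl-5* and 91698, 96632 and 90032 in *rict-1*, against 25909, 31218 and 30028 in wild-type. Both were called higher (log2 fold change 1.48, standard error 0.28, adjusted p = 0.00137 in *rict-1; fbxl-5*, and log2 fold change 1.68, standard error 0.28, adjusted p = 2.84e-04 in *rict-1*). *asp-2* had 35132, 37115 and 32596 in *rict-1*, against 12520, 15312 and 13143 in wild-type (log2 fold change 1.36, standard error 0.27, adjusted p = 0.00148). In *rict-1; fbxl-5* its values of 21913 to 25642 lay above all wild-type libraries but did not pass the test (log2 fold change 0.79, adjusted p = 0.045). In the *rict-1; fbxl-5* comparison with wild-type, the calls of *asp-1* and *asp-5* were lost without wild-type replicate 1 (adjusted p up to 0.0118 and 0.0121), and that of *asp-5* also without *rict-1; fbxl-5* replicate 1.

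Set directly against *rict-1*, the *rict-1; fbxl-5* double mutant had lower values of *asp-1*, *asp-2*, *asp-5* and *asp-6* in every library, with log2 fold changes of -0.54, -0.57, -1.05 and -0.61, none of which passed the test in the fit of all 18 libraries (adjusted p = 0.462, 0.411, 0.127 and 0.319). With the replicate block in the fit of these 2 genotypes, all 4 were called, at adjusted p = 0.00561, 0.00118, 1.34e-05 and 0.00243. The 95% interval of the *asp-5* log2 difference in the fit of all libraries was -1.77 to -0.33. In this comparison *asp-3* was at -0.20 ± 0.28 (standard error, adjusted p = 0.944), with all *rict-1; fbxl-5* libraries below those of *rict-1*.

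**Figure D1:**
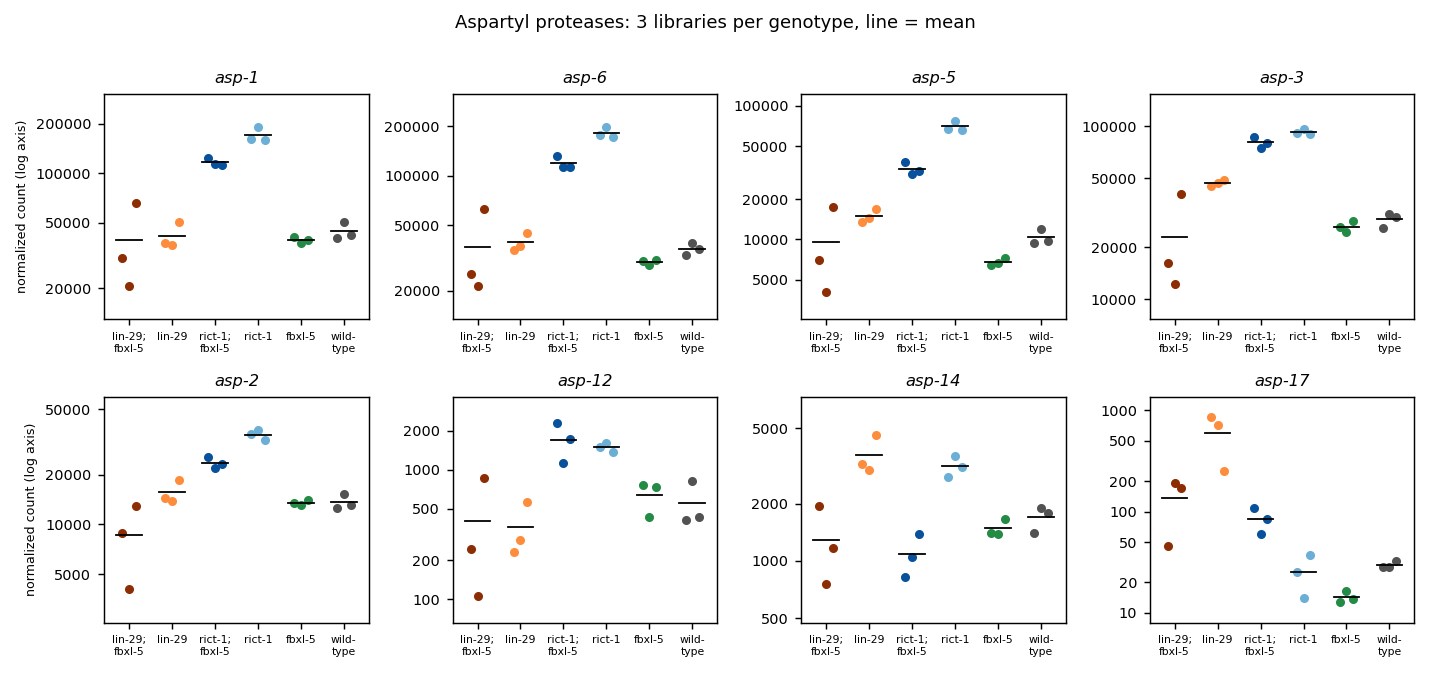
Normalized counts (log axis) of 8 aspartyl protease genes in each library, with genotypes on the x axis, 3 points per genotype and a black line at the mean. *asp-1*, *asp-6*, *asp-5*, *asp-3* and *asp-2* reached their highest values in the 3 *rict-1* libraries, *asp-14* was high in *lin-29* and *rict-1* and lower in both double mutants, and *asp-17* was highest in *lin-29*.

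*asp-13*, *asp-14* and *asp-17* each had another pattern. *asp-14* had 1940.5, 757 and 1174 normalized counts in *lin-29; fbxl-5* and 3231, 3017 and 4581 in *lin-29*, 818, 1052 and 1378 in *rict-1; fbxl-5* and 2762, 3559 and 3117 in *rict-1*, and 1399, 1894 and 1791 in wild-type. Loss of *fbxl-5* thus went with lower *asp-14* in both mutant backgrounds (log2 fold change -1.56, standard error 0.27, adjusted p = 0.00124 in *lin-29*, and log2 fold change -1.56, standard error 0.27, adjusted p = 0.00385 in *rict-1*), while *fbxl-5(rhd43)* alone had 1409, 1383 and 1657, overlapping wild-type. The *rict-1* call was lost without any of *rict-1* replicates 1, 2 and 3 or *rict-1; fbxl-5* replicates 1 and 2 (adjusted p up to 0.0297), and the call of *lin-29* above wild-type (log2 fold change 1.08, standard error 0.27, adjusted p = 0.00361) without wild-type replicate 1 or *lin-29* replicate 3 (up to 0.0216).

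*asp-17* was a low gene in most genotypes and highest in *lin-29*. It had 45.9, 193 and 169.6 normalized counts in *lin-29; fbxl-5* and 849, 706 and 249.8 in *lin-29*, 108, 60.5 and 84.4 in *rict-1; fbxl-5* and 25.4, 14 and 37 in *rict-1*, and 28.1, 28.1 and 32.7 in wild-type. Replicate 3 of *lin-29* was the lowest of its group but still above every library of the other genotypes, and the *lin-29* mean was 20.3-fold that of wild-type (log2 fold change 4.12, standard error 0.50, adjusted p = 5.24e-06). Loss of *fbxl-5* went with a lower value in *lin-29* (log2 fold change -2.20, adjusted p = 0.00838) and a higher value in *rict-1* that did not pass the test (log2 fold change 1.75, adjusted p = 0.0745, and 3.59e-05 with the replicate block in the fit of the 2 genotypes). The difference between these 2 effects of *fbxl-5* was called (log2 fold change -3.95, standard error 0.71, adjusted p = 0.00673), a contrast added after the values had been seen, and it was lost without any one of *lin-29* replicates 1 and 2, *rict-1* replicates 1 and 2 or *rict-1; fbxl-5* replicates 1, 2 and 3 (adjusted p up to 0.0216). The *lin-29; fbxl-5* call against *lin-29* was lost without *lin-29* replicate 1 or 2 or *lin-29; fbxl-5* replicate 1 (up to 0.0495), and against wild-type, where *asp-17* was also higher (log2 fold change 1.92, adjusted p = 0.00447), without any wild-type library or *lin-29; fbxl-5* replicate 2 or 3 (up to 0.0283).

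*asp-13* fell in *lin-29; fbxl-5*, to 3327, 1351 and 2892 normalized counts, against 5226, 4854 and 5940.1 in *lin-29* and 4537, 5424 and 5649 in wild-type (log2 fold change -1.18, standard error 0.22, adjusted p = 0.00222 against *lin-29*, and log2 fold change -1.14, standard error 0.22, adjusted p = 5.31e-04 against wild-type). Its *lin-29; fbxl-5* libraries lay below those of all other genotypes. *asp-3* was lower in *lin-29; fbxl-5* than in *lin-29* as well, at 16258, 12276 and 40554 against 45320.5, 46931 and 49087 (log2 fold change -1.23, adjusted p = 0.00751), though replicate 3 of the double mutant lay close to *lin-29* and the call was lost without any of the 3 *lin-29* libraries or *lin-29; fbxl-5* replicate 1 or 2 (up to 0.0394). *asp-4*, a lysosomal cathepsin D, had 13804, 17272 and 14479.9 in *rict-1* and 8701, 8924 and 11638 in *lin-29*, against 10669, 12295 and 13421 in wild-type, with log2 fold changes of 0.32 ± 0.15 and -0.32 ± 0.15 (standard error) that did not pass the test. *asp-4*, *asp-8* and *asp-12* were called in no comparison by limma with all libraries, while DESeq2 called *asp-8* lower in *fbxl-5(rhd43)* than in wild-type (adjusted p = 0.00506). *asp-12* lies between *asp-6* and *asp-5* in a cluster on chromosome V and moved in the same direction in *rict-1* without passing the test. It ranged from 1379.5 to 1616 there, against 408 to 823 in wild-type (2.69-fold higher mean, adjusted p = 0.0714). Per kilobase of exon it averaged 1227 in *rict-1; fbxl-5* and 1075 in *rict-1*, against 399 in wild-type.

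The intestinal marker list summed higher in both *rict-1* genotypes than in wild-type. Its part in the aspartyl protease values was not tested. In *rict-1*, 3 of its 5 measured genes were higher than in wild-type (*elt-2*, *ges-1* and *ifb-2*, with log2 fold changes of 0.86, 1.35 and 1.43), *act-5* and *pept-1* were at 0.18 and -0.17, and the list summed to 15061 to 16871 normalized counts in *rict-1* and 16718 to 17581 in *rict-1; fbxl-5*, against 10839 to 12658 in wild-type. In *fbxl-5(rhd43)* the list summed to 15868 to 16458, with 0 of its 5 genes called against wild-type. The aspartyl proteases took 0.590% of reads there, against 0.696% in wild-type. In *lin-29; fbxl-5*, *ges-1*, *ifb-2* and *pept-1* were lower than in *lin-29* (log2 fold changes -1.47, -0.81 and -1.26), and the list summed to 8857 to 12074, against 11914 to 16266 in *lin-29*. None of the 5 was at 0 in any group.

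Among the cysteine cathepsins, *cpr-1*, *cpr-4* and *cpz-2* shared a pattern: they rose in *lin-29* and in *rict-1*, and each was lower in the double mutant with *fbxl-5* than in the matching single mutant. *cpr-1*, a cathepsin B-like gut protease, had 4042, 3719.7 and 3413 normalized counts in *lin-29; fbxl-5* and 13366, 14299 and 13523 in *lin-29*, 3469.9, 4068 and 5239 in *rict-1; fbxl-5* and 7025, 6570.1 and 8012 in *rict-1*, and 2555, 2650.3 and 2706 in wild-type. Both double mutants thus lay below every library of their single mutants and above every wild-type library. Against wild-type, *cpr-1* was 5.21-fold higher in *lin-29* (log2 fold change 2.38, standard error 0.13, adjusted p = 6.35e-10) and 2.73-fold higher in *rict-1* (log2 fold change 1.44, standard error 0.13, adjusted p = 5.04e-07). The call of *lin-29; fbxl-5* above wild-type (0.49, adjusted p = 0.00377) was lost without wild-type replicate 1 or 2 or *lin-29; fbxl-5* replicate 1 or 2 (up to 0.0164). The log2 fold changes against the single mutants were -1.88 ± 0.13 (standard error, adjusted p = 9.02e-08) in *lin-29* and -0.77 ± 0.13 (adjusted p = 0.00202) in *rict-1*, while *fbxl-5(rhd43)* alone, at 2974, 2432 and 2367, overlapped wild-type (-0.03 ± 0.13).

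*cpz-2*, of the cathepsin Z type, gave a similar order. Its values were 916, 1128 and 1262 in *lin-29; fbxl-5* and 3597, 3750.5 and 4442 in *lin-29*, 1433, 1701 and 1613 in *rict-1; fbxl-5* and 3011, 3409 and 3035 in *rict-1*, and 982, 1156 and 1088 in wild-type. The single mutants were called above wild-type (log2 fold changes 1.87 in *lin-29* and 1.55 in *rict-1*, adjusted p = 3.24e-09 and 9.86e-08). *lin-29; fbxl-5* thus overlapped wild-type (log2 fold change 0.03, adjusted p = 0.867), whereas *rict-1; fbxl-5* stayed above it (log2 fold change 0.56, standard error 0.12, adjusted p = 0.00303). Against the single mutants, *cpz-2* fell by 1.84 on the log2 scale in *lin-29* (standard error 0.12, adjusted p = 5.29e-08) and by 1.00 in *rict-1* (adjusted p = 1.08e-04). *cpr-1* and *cpz-2* were the 2 members whose fall in *lin-29; fbxl-5* was called when only that genotype and *lin-29* were fitted. In *rict-1; fbxl-5*, the *cpz-2* call against wild-type was lost without wild-type replicate 1 or 3 or *rict-1; fbxl-5* replicate 2 or 3 (adjusted p up to 0.0196), and the *cpr-1* call against *rict-1* without *rict-1* replicate 3 or *rict-1; fbxl-5* replicate 1 or 2 (up to 0.0162).

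*cpr-4*, a secreted cathepsin B, had 7192, 5909.5 and 3904 normalized counts in *lin-29; fbxl-5* and 11283, 9888 and 14227 in *lin-29*, 8009, 9007 and 7041 in *rict-1; fbxl-5* and 11060.2, 10879.5 and 10120 in *rict-1*, and 3427, 4170.5 and 4064 in wild-type. The double mutants were lower than the single mutants in every library. The difference was called in *lin-29* (log2 fold change -1.09, adjusted p = 5.23e-04) and not in *rict-1* (log2 fold change -0.42, adjusted p = 0.298, and 0.00348 with the replicate block in the fit of the 2 genotypes). Against wild-type, *cpr-4* was higher in *lin-29* (log2 fold change 1.59, standard error 0.18, adjusted p = 1.70e-06) and in *rict-1* (log2 fold change 1.46, standard error 0.18, adjusted p = 1.34e-05). *rict-1; fbxl-5* remained above wild-type (log2 fold change 1.04, standard error 0.18, adjusted p = 5.96e-04). *fbxl-5(rhd43)* alone had 5734, 5057 and 4794, above every wild-type library but without passing the test (0.42 ± 0.18, adjusted p = 0.157).

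**Figure D2:**
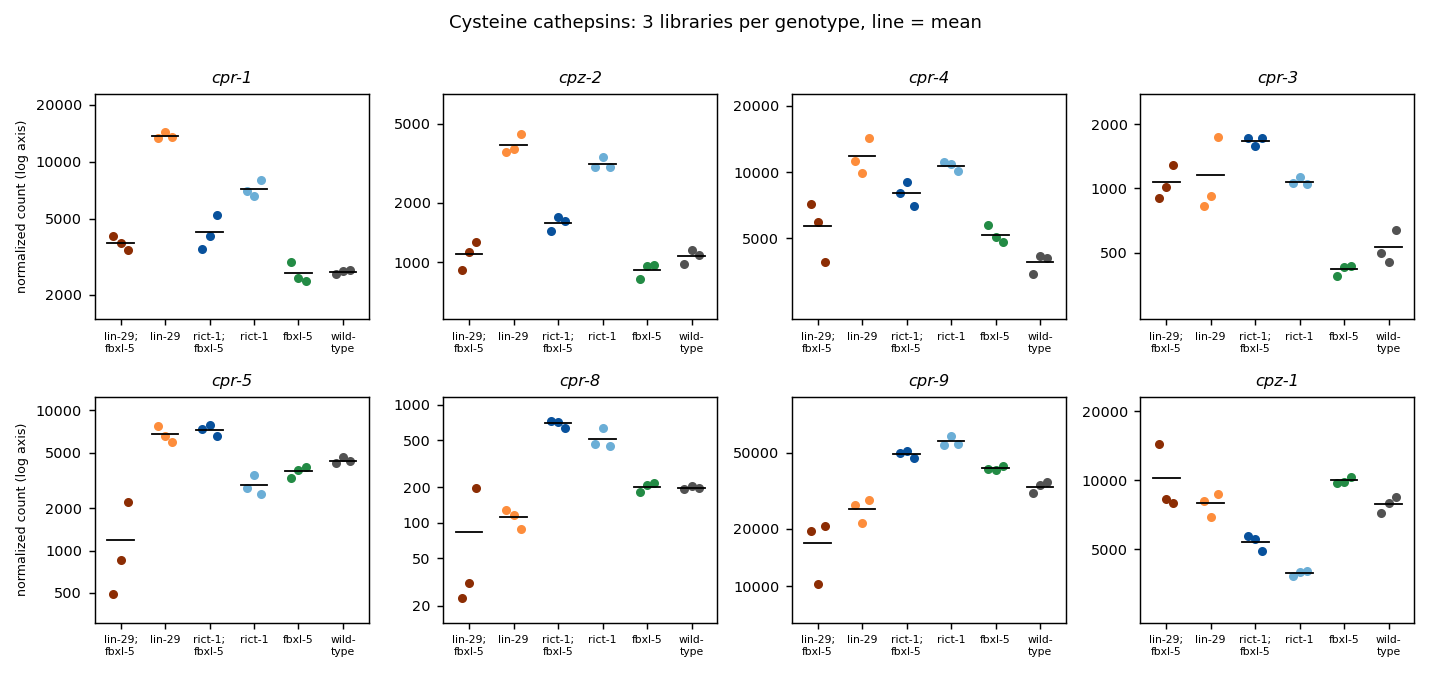
Normalized counts (log axis) of 8 cysteine cathepsin genes in each library, with genotypes on the x axis, 3 points per genotype and a black line at the mean. *cpr-1*, *cpz-2* and *cpr-4* were high in *lin-29* and *rict-1* and lower in both double mutants, and *cpr-5* was low in *lin-29; fbxl-5* and *rict-1* and high in *lin-29* and *rict-1; fbxl-5*.

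*cpr-5*, another cathepsin B-like gene, was lower with *fbxl-5(rhd43)* in *lin-29* and higher with it in *rict-1*. In *lin-29; fbxl-5* it had 492, 854 and 2224 normalized counts, against 7708, 6603 and 5952 in *lin-29*, a 0.176-fold level with no overlap (log2 fold change -2.78, standard error 0.35, adjusted p = 8.66e-05). In *rict-1; fbxl-5* it had 7301, 7813 and 6526, against 2794, 3437 and 2527 in *rict-1*, 2.47-fold higher with no overlap, which did not pass the test with all libraries in the fit (log2 fold change 1.31, standard error 0.35, adjusted p = 0.0574) and did with the replicate block in the fit of these 2 genotypes (adjusted p = 4.22e-08). *fbxl-5(rhd43)* alone had 3292, 3752 and 3955, against 4179, 4646 and 4319 in wild-type (-0.26 ± 0.35 on the log2 scale, standard error, adjusted p = 0.709).

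The difference between the effects of *fbxl-5(rhd43)* on *cpr-5* in *lin-29* and in *rict-1* was -4.09 ± 0.50 on the log2 scale (standard error, adjusted p = 3.96e-04, 95% interval -5.15 to -3.03), a contrast added after the values had been seen, and its call held with each library left out in turn. Between *lin-29* and wild-type the effects differed by -2.52 ± 0.50 (adjusted p = 0.00747), a call lost without any library of wild-type, *fbxl-5* or *lin-29* and without *lin-29; fbxl-5* replicate 2 (adjusted p up to 0.0222). Against wild-type, *cpr-5* was lower in *lin-29; fbxl-5* (log2 fold change -2.16, standard error 0.35, adjusted p = 1.36e-04). The values of 7708, 6603 and 5952 in *lin-29* and of 2794, 3437 and 2527 in *rict-1* lay above and below all wild-type libraries but did not pass the test (adjusted p = 0.149 and 0.217).

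*cpr-8* lies head to head with *cpr-5*, 565 bases away on chromosome V. It had 23, 30.7 and 197 normalized counts in *lin-29; fbxl-5* and 128, 117 and 88.8 in *lin-29*, 730, 716 and 636 in *rict-1; fbxl-5* and 465, 629 and 446 in *rict-1*, and 194, 205 and 197 in wild-type. In *lin-29; fbxl-5*, replicates 1 and 2 were far below wild-type and replicate 3 was within its range, and the call (log2 fold change -1.91, standard error 0.51, adjusted p = 0.00602) was lost in edgeR (0.0445), in DESeq2 (0.0451), without any wild-type library and without *lin-29; fbxl-5* replicate 1 or 2 (adjusted p up to 0.0349). The values above wild-type in both *rict-1* genotypes did not pass the test in limma (adjusted p = 0.0211 in *rict-1; fbxl-5* and 0.0609 in *rict-1*), while edgeR and DESeq2 called the *rict-1; fbxl-5* value (adjusted p = 0.00848 and 0.00649).

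*cpz-1*, a cathepsin Z needed for molting and embryonic development, was the member that fell in *rict-1*. It had 3846, 4008 and 4014 normalized counts in *rict-1*, against 7195, 7963 and 8463 in wild-type (log2 fold change -0.99, standard error 0.16, adjusted p = 2.57e-04). In *rict-1; fbxl-5* it had 5703, 5568 and 4930.5, still below all wild-type libraries without passing the test (-0.54 ± 0.16, adjusted p = 0.0247). *cpr-3* was higher than in wild-type in all 4 mutants of *lin-29* or *rict-1*: its values were 900, 1019 and 1291 in *lin-29; fbxl-5*, 827, 919.5 and 1739 in *lin-29*, 1715, 1578 and 1718 in *rict-1; fbxl-5* and 1055, 1128 and 1051 in *rict-1*, against 501, 453 and 639 in wild-type, with log2 fold changes of 1.01, 1.06, 1.67 and 1.04 (adjusted p = 7.51e-04, 4.60e-04, 4.21e-05 and 0.00146).

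*cpr-9* was called lower in *lin-29; fbxl-5* and higher in *rict-1*. It had 19337, 10333 and 20725 normalized counts in *lin-29; fbxl-5* and 26719, 21397 and 28271 in *lin-29*, 49803, 50751 and 46931 in *rict-1; fbxl-5* and 54664, 61271 and 55539 in *rict-1*, and 30648, 33715 and 35279 in wild-type. Both *lin-29* genotypes lay below and both *rict-1* genotypes above all wild-type libraries. The calls were those of *lin-29; fbxl-5* (log2 fold change -1.05, standard error 0.19, adjusted p = 2.01e-04) and *rict-1* (log2 fold change 0.78, standard error 0.19, adjusted p = 0.00479), and the single *lin-29* mutant and *rict-1; fbxl-5* did not pass the test (log2 fold changes -0.39 and 0.57, adjusted p = 0.0852 and 0.0373). The *rict-1* call was lost without any one of the 6 libraries compared (adjusted p up to 0.025). *cpl-1*, the cathepsin L that processes yolk and is needed in embryos, and *cpr-6*, a cathepsin B-like gene, were called in no comparison by limma with all libraries: *cpl-1* had 35459, 35821 and 32733 in *rict-1*, 29120.2, 29152 and 31077 in *lin-29* and 38945, 38748 and 40787 in *fbxl-5(rhd43)*, against 26129, 29359.7 and 29743 in wild-type, and *cpr-6* ranged from 14539 to 29973 over the 18 libraries, with its largest difference from wild-type in *lin-29; fbxl-5* (-0.48 ± 0.15, adjusted p = 0.0138, and 0.00884 in DESeq2, which called it lower). DESeq2 also called *cpl-1* higher in *fbxl-5(rhd43)* than in wild-type (adjusted p = 8.00e-04). For *cpl-1* in *fbxl-5(rhd43)*, every library was above wild-type and the fitted difference was 0.48 ± 0.12 (adjusted p = 0.0183, and 8.00e-04 in DESeq2).

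The lipases other than *lipl-5* and *lipl-7* were low in wild-type, and most of them were higher in *lin-29* or *rict-1*. *lipl-1*, a lysosomal lipase induced by fasting, had 116, 151 and 182 normalized counts in *rict-1; fbxl-5* and 126, 145 and 225 in *rict-1*, against 2.34, 5.86 and 3.63 in wild-type, where it rested on 11 reads in all. The mean was 37.9-fold higher in *rict-1; fbxl-5* (adjusted p = 7.28e-07) and 41.9-fold higher in *rict-1* (log2 fold change 5.09, standard error 0.42, adjusted p = 2.49e-07, a scale that understates changes of low genes). *lipl-1* was also higher in *lin-29; fbxl-5*, at 54.1, 29.7 and 38.8 (adjusted p = 1.53e-05), and in *lin-29*, at 28.6, 21.4 and 72.2 (log2 fold change 2.95, standard error 0.42, adjusted p = 2.09e-05). Adding *fbxl-5(rhd43)* left it at log2 differences of 0.16 ± 0.42 in *lin-29* and -0.12 ± 0.42 in *rict-1*, with 95% intervals of -0.73 to 1.04 and -1.01 to 0.76.

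*lipl-2*, of the same fasting-induced group, had its highest values with *lin-29(n333)*. They were 401, 430.4 and 358 normalized counts in *lin-29; fbxl-5* and 508, 573 and 1056 in *lin-29*, against 14, 18.7 and 12.7 in wild-type. Both were called higher (log2 fold change 4.63, standard error 0.35, adjusted p = 4.74e-08 in *lin-29; fbxl-5*, and log2 fold change 5.40, standard error 0.35, adjusted p = 4.85e-09 in *lin-29*). The values of 71, 78.3 and 138 in *rict-1; fbxl-5* and of 90.1, 105 and 144 in *rict-1* were likewise above all wild-type libraries (log2 fold changes 2.54 and 2.81, adjusted p = 9.50e-05 and 1.90e-05). *lipl-4*, the lysosomal acid lipase tied to fat mobilization and long life, was instead highest with *rict-1(mg360)*: it had 143, 116 and 98.8 in *rict-1; fbxl-5* and 178, 196 and 203 in *rict-1*, against 17.5, 10.5 and 16.4 in wild-type. The mean was 8.05-fold higher in *rict-1; fbxl-5* (log2 fold change 2.94, standard error 0.50, adjusted p = 6.15e-04) and 13-fold higher in *rict-1* (log2 fold change 3.64, standard error 0.50, adjusted p = 4.87e-05). The *rict-1; fbxl-5* values lay below all *rict-1* values without passing the test (log2 fold change -0.70, adjusted p = 0.745, and 0.00239 with the replicate block in the fit of these 2 genotypes). In *lin-29* it had 31.3, 40.2 and 27.1, which did not pass the test (adjusted p = 0.0709).

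**Figure D3:**
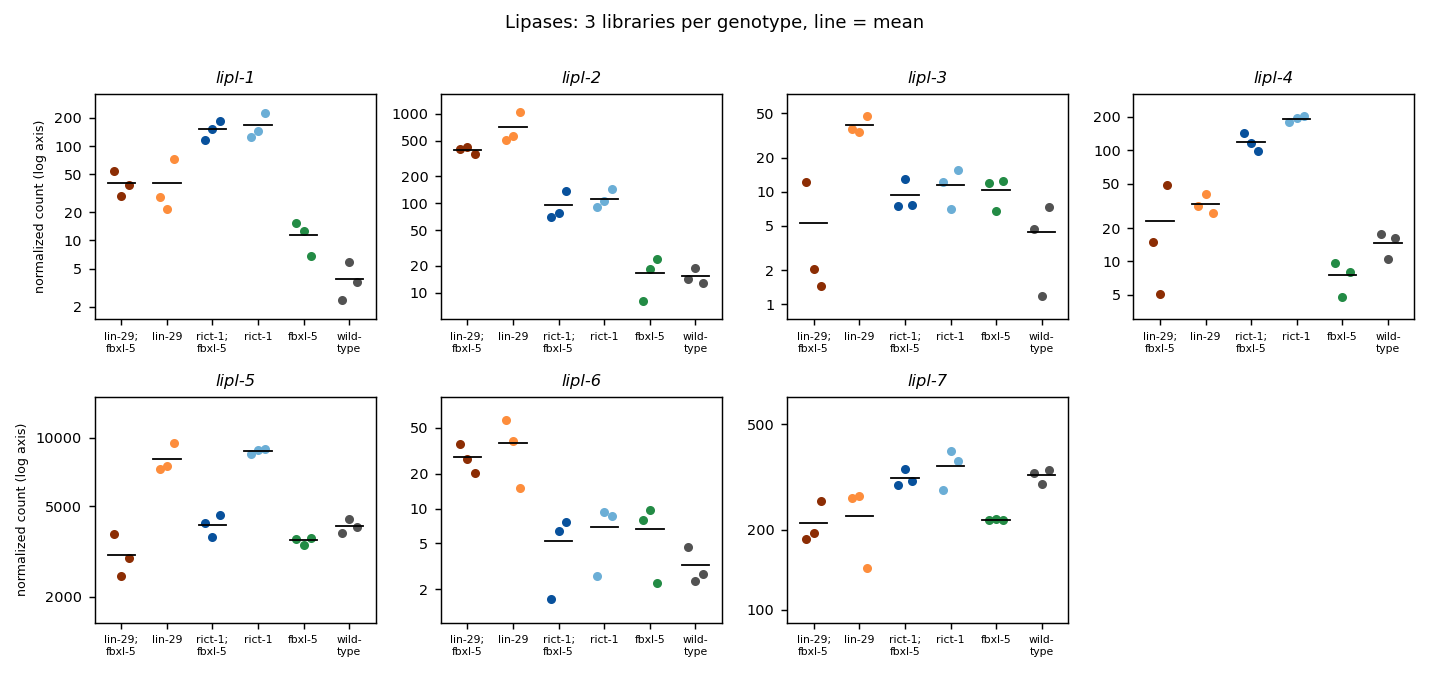
Normalized counts (log axis) of the 7 lipase genes in each library, with genotypes on the x axis, 3 points per genotype and a black line at the mean. *lipl-1* and *lipl-4* were highest in the *rict-1* genotypes, *lipl-2* and *lipl-6* in the *lin-29* genotypes and *lipl-3* in *lin-29*, and all *lipl-5* values of *lin-29* and *rict-1* lay above those of the other genotypes.

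*lipl-3* and *lipl-5* were the lipases with a called difference between a double mutant and its single mutant. *lipl-3*, also fasting-induced and close to the minimum level, had 12.2, 2.05 and 1.44 normalized counts in *lin-29; fbxl-5*, where it rested on 12 reads in all, and 35.9, 34 and 46.6 in *lin-29*, against 4.68, 1.17 and 7.27 in wild-type. It was higher in *lin-29* than in wild-type (log2 fold change 3.08, standard error 0.59, adjusted p = 3.43e-04) and lower in *lin-29; fbxl-5*, at 0.134 of the *lin-29* mean (95% interval of the log2 fold change -4.34 to -1.86, adjusted p = 0.00194), a call lost without *lin-29; fbxl-5* replicate 2 (0.0116). *fbxl-5(rhd43)* alone had 12, 6.74 and 12.6, which was not called different from wild-type (1.25 ± 0.59, adjusted p = 0.205). *lipl-3* reached the minimum mean only through its *lin-29* values, so its calls that involve *lin-29* are no independent support.

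*lipl-5*, the lipase with the highest level per kb in wild-type, which is induced by fasting in the intestine, had 3774, 2462 and 2949.8 normalized counts in *lin-29; fbxl-5* and 7299.9, 7463 and 9446 in *lin-29*, 4212, 3650.4 and 4549 in *rict-1; fbxl-5* and 8504, 8807 and 8880 in *rict-1*, and 3796, 4374 and 4038 in wild-type. The single mutants were above every wild-type library (log2 fold change 0.98, standard error 0.13, adjusted p = 1.23e-05 in *lin-29*, and log2 fold change 1.10, standard error 0.13, adjusted p = 1.20e-05 in *rict-1*), and with *fbxl-5(rhd43)* added the values lay around or below those of wild-type. Both falls were called (log2 fold change -1.41, standard error 0.13, adjusted p = 2.20e-06 against *lin-29*, and log2 fold change -1.08, standard error 0.13, adjusted p = 1.53e-04 against *rict-1*), while *fbxl-5(rhd43)* alone was at 3582, 3370 and 3634. *lipl-6* was higher with *lin-29(n333)*, at 36.5, 26.6 and 20.1 in *lin-29; fbxl-5* and 58.1, 38.4 and 15 in *lin-29*, against 4.68, 2.34 and 2.73 in wild-type, where it rested on 9 reads (log2 fold changes 2.76 and 3.02, adjusted p = 0.00114 and 5.14e-04). Like *lipl-3*, it reached the minimum mean only through the *lin-29* genotypes, where it was high. *lipl-7* ranged from 143 to 397 over the 18 libraries and was called in no comparison by limma with all libraries. DESeq2 called it lower in *lin-29; fbxl-5* than in wild-type (log2 fold change -0.60, adjusted p = 0.00726).

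The V-ATPase subunits changed little in most genotypes and moved together in *lin-29; fbxl-5*. There all 20 subunits had a negative log2 fold change against wild-type, from -0.18 to -1.09 with a median of -0.40, and 16 were called lower. In the same comparison 4 of 5 tested early embryo markers (summed level of the 7 listed 16.4 to 104 in *lin-29; fbxl-5*, against 281 to 395 in wild-type), 2 of 5 oocyte markers (96766 to 142032 against 136449 to 186413) and 2 of 5 intestinal markers (8857 to 12074 against 10839 to 12658) were lower, 1 intestinal marker was higher, and 4 of 5 pharyngeal gland markers were higher (274 to 666 against 181 to 231). Their part in the V-ATPase values was not tested. Of the V1 sector, which hydrolyses ATP, the catalytic A subunit *vha-13* had 9888, 9080 and 10812 normalized counts in *lin-29; fbxl-5*, against 12935, 13602 and 11583 in wild-type (log2 fold change -0.36, standard error 0.08, adjusted p = 0.00177). The B subunit *vha-12* had 6011, 5571 and 6976 against 8308, 9314 and 7322 (log2 fold change -0.43, standard error 0.10, adjusted p = 0.00205). The stalk subunit E, *vha-8*, had 4513, 4555 and 6373 against 6769, 7258 and 7478 (log2 fold change -0.50, adjusted p = 0.00112). The largest of these V1 changes were in *vha-11* (subunit C), at 2529.7, 2405 and 3081 against 4113, 4241 and 4300.2 (log2 fold change -0.67, standard error 0.08, adjusted p = 4.65e-06), and *vha-15* (subunit H), at 2474, 2571 and 3234 against 3831, 4387 and 4009.5 (log2 fold change -0.57, standard error 0.10, adjusted p = 1.34e-04). Each of these subunits was lower in all 3 double mutant libraries than in any wild-type library, and replicate 3 was the highest of the 3.

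Against *lin-29*, the same double mutant had negative log2 fold changes for all 20 subunits as well, from -0.04 to -1.49 with a median of -0.30, and 6 were called lower: *vha-2*, *vha-6*, *vha-11*, *vha-15*, *vha-16* and *vha-20*. *vha-11* and *vha-15* had 3709, 3749 and 3606 and 4121, 4633 and 3989 normalized counts in *lin-29* (log2 fold changes of *lin-29; fbxl-5* against *lin-29* -0.47 and -0.63, adjusted p = 7.35e-04 and 3.19e-04), and *vha-16* (subunit d) and *vha-20* (similar to the accessory subunit ATP6AP2) were at -0.50 and -0.50 (adjusted p = 5.11e-04 and 0.00128). *vha-2*, a proteolipid c subunit whose protein is identical to that of *vha-3*, so that the split of reads between the 2 genes is uncertain, was at -0.37 (adjusted p = 0.00709), lost without any one of the libraries compared except *lin-29; fbxl-5* replicate 3 (up to 0.0364). None of the 6 was called when only *lin-29; fbxl-5* and *lin-29* were fitted.

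The weakest calls of *lin-29; fbxl-5* against wild-type were those of *vha-5*, *vha-10*, *vha-14*, *vha-19* and *vha-20*, with adjusted p of 0.00702, 0.00334, 0.00375, 0.00918 and 0.00729. Each was lost in edgeR and when any of several libraries was left out, wild-type replicate 2 and *lin-29; fbxl-5* replicates 1 and 2 among them for all 5 (adjusted p up to 0.037, 0.0213, 0.023, 0.055 and 0.0431). Without *lin-29; fbxl-5* replicate 2 or wild-type replicate 2, *vha-12* and *vha-13* also lost theirs (up to 0.0167 and 0.0139). *vha-4* was lost without *lin-29; fbxl-5* replicate 2 (0.0113), and *vha-2*, *vha-6*, *vha-7*, *vha-8*, *vha-11*, *vha-15*, *vha-16* and *vha-18* held with each library left out.

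The genes for the a subunit, which directs the pump to its membrane, differed most among the subunits. *vha-6*, the a subunit of the apical membrane of the intestine, had 2426, 1816 and 4088 normalized counts in *lin-29; fbxl-5* and 7325, 7257 and 7524 in *lin-29*, 10402, 9415 and 9766 in *rict-1; fbxl-5* and 10081, 10582 and 9824 in *rict-1*, 5524, 5123 and 5816 in *fbxl-5(rhd43)* and 5345, 5826 and 5607 in wild-type. It had the largest called fold changes of the subunits against wild-type in both directions. It was 1.82-fold higher in *rict-1* than in wild-type (log2 fold change 0.86, standard error 0.18, adjusted p = 0.00208) and 1.76-fold higher in *rict-1; fbxl-5* (log2 fold change 0.82, standard error 0.18, adjusted p = 0.00438). In *lin-29; fbxl-5* it was at 0.496 of wild-type (log2 fold change -1.09, standard error 0.18, adjusted p = 1.15e-04) and 0.377 of *lin-29* (log2 fold change -1.49, standard error 0.18, adjusted p = 3.40e-05). The *rict-1* call was lost without wild-type replicate 1 or *rict-1* replicate 2 (up to 0.0115) and the *rict-1; fbxl-5* call without any one of the 6 libraries compared (up to 0.0204).

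*vha-5*, the a subunit of the apical membranes of the hypodermis and excretory canal, did not follow *vha-6*. It had 1015, 1735 and 2044 normalized counts in *lin-29; fbxl-5*, 2928, 3364 and 1682 in *lin-29*, 1898, 1785 and 2307 in *rict-1; fbxl-5*, 1851, 2293 and 1802 in *rict-1* and 1489, 1748 and 1875 in *fbxl-5(rhd43)*, against 2746, 3230 and 2606 in wild-type. All libraries of the 4 genotypes other than *lin-29* lay below wild-type, but only *lin-29; fbxl-5* passed the test (log2 fold change -0.89, standard error 0.25, adjusted p = 0.00702). In *fbxl-5(rhd43)* the fitted difference was -0.75 ± 0.25 (adjusted p = 0.0762). *vha-7*, a hypodermal a subunit, was lower in *lin-29; fbxl-5*, at 2351, 2333 and 2211, and in *lin-29*, at 2762, 2545 and 2139.5, against 4233, 3791 and 3282 in wild-type (log2 fold change -0.71, standard error 0.12, adjusted p = 1.05e-04, and log2 fold change -0.60, standard error 0.12, adjusted p = 3.94e-04). The excretory cell markers summed to 1555 to 2052 in *lin-29; fbxl-5*, 1948 to 2548 in *lin-29*, 1332 to 1514 in *rict-1; fbxl-5*, 1331 to 1536 in *rict-1* and 1479 to 1553 in *fbxl-5(rhd43)*, against 2113 to 2203 in wild-type, and their part in the *vha-5* values was not tested. *unc-32*, the remaining a subunit gene, known for its role in neurons, was called in no comparison by limma.

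In *rict-1* the V-ATPase calls were *vha-6* and 3 V0 subunits, all higher. The c subunits *vha-1* and *vha-2*, which are neighbours 400 bases apart on chromosome III, had 4909, 5396 and 4921 and 15306, 15826 and 15007 normalized counts in *rict-1*, against 3836, 3768 and 3897 and 11909.5, 12043 and 12769 in wild-type (log2 fold change 0.40, standard error 0.08, adjusted p = 0.00119, and log2 fold change 0.33, standard error 0.08, adjusted p = 0.00682). *vha-17* (subunit e) was at 0.43 on the log2 scale (adjusted p = 0.00471). The V1 subunits stayed near wild-type: *vha-8*, *vha-12*, *vha-13* and *vha-15* were at 0.15 ± 0.11, 0.18 ± 0.10, 0.11 ± 0.08 and 0.10 ± 0.10 (log2 fold change and standard error), and none was called. The *vha-2* call was lost without any one of the 6 libraries compared and that of *vha-17* without wild-type replicate 1 or 2 or *rict-1* replicate 2 or 3 (adjusted p up to 0.03 and 0.024). In *rict-1; fbxl-5* *vha-1* was called as well (log2 fold change 0.34, standard error 0.08, adjusted p = 0.00605), lost without any one of the 6 libraries (up to 0.0293). In *lin-29* the 2 calls were *vha-7* and *vha-18*, a second gene for subunit H, which had 1876, 1828 and 1742 in *lin-29*, against 2525, 2459 and 2596 in wild-type (log2 fold change -0.48, standard error 0.09, adjusted p = 2.13e-04).

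**Figure D4:**
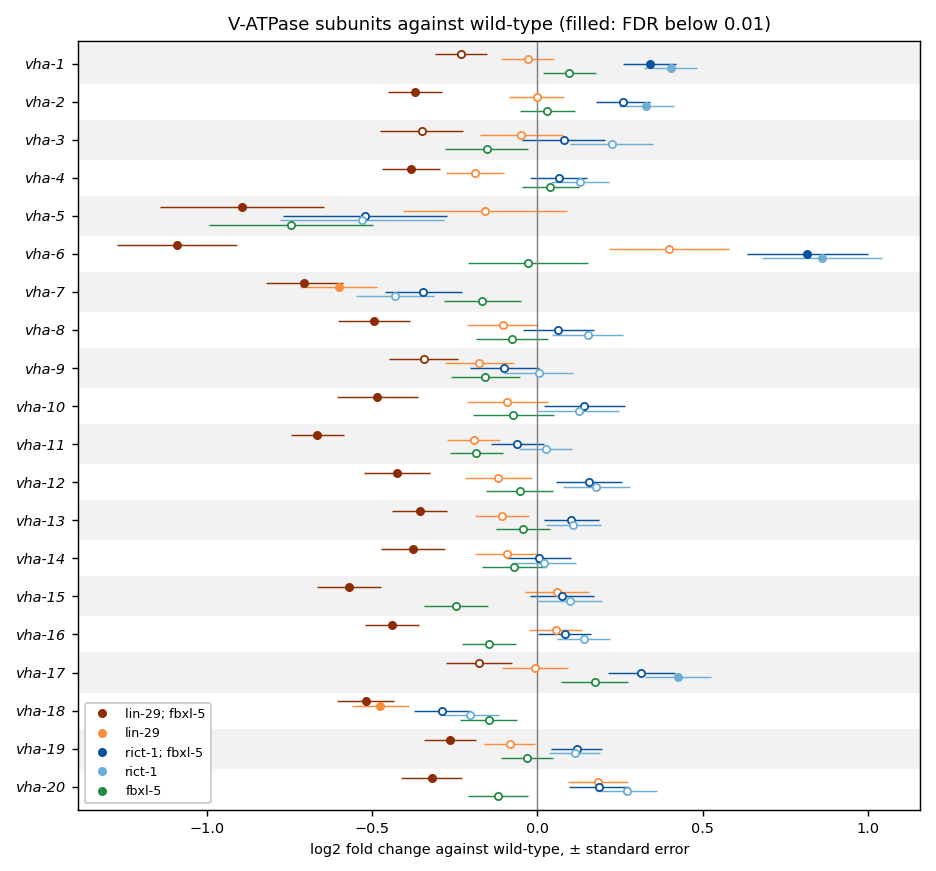
Log2 fold changes against wild-type (x axis, bars are standard errors) of the 20 V-ATPase subunit genes in the 5 mutant genotypes, with filled points where the adjusted p was below 0.01. In *lin-29; fbxl-5* all 20 points lie below 0 and 16 are filled, and *vha-6* has the most negative value there and the most positive values in *rict-1; fbxl-5* and *rict-1*.

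The effect of *fbxl-5(rhd43)* on the hydrolases differed between genetic backgrounds. Its effect in *lin-29* minus its effect in wild-type was negative and called for 7 members, *cpr-1*, *cpr-4*, *cpr-5*, *cpz-2*, *lipl-3*, *lipl-5* and *vha-6*, and positive and called for 0, where 1.68% and 0.713% of all genes were called. In the same contrast the intestinal markers *ges-1*, *ifb-2* and *pept-1* were called lower (log2 differences -1.53, -1.43 and -1.66), *elt-2* and *act-5* were at -0.55 and -0.49, and the median of the 5 was -1.43. Their part in the members' differences was not tested. The log2 differences were -1.85 ± 0.18 for *cpr-1* (standard error, adjusted p = 1.69e-05), -1.51 ± 0.25 for *cpr-4* (adjusted p = 0.00181), -1.61 ± 0.17 for *cpz-2* (adjusted p = 2.36e-05) and -1.21 ± 0.19 for *lipl-5* (adjusted p = 0.00103). For *vha-6* and *lipl-3* they were -1.46 ± 0.26 and -4.35 ± 0.83 (adjusted p = 0.00287 and 0.0048). The count was 4 without *fbxl-5(rhd43)* replicate 3, the library rich in ribosomal RNA, 14 without *lin-29; fbxl-5* replicate 3, and 3 when only the 4 genotypes compared were fitted. Over all genes, these fits called 161, 450 and 135, against 323 in the main fit. The *vha-6* call was lost without *fbxl-5(rhd43)* replicate 3 (0.0106), and that of *lipl-3* without any of 6 single libraries, up to 0.0166 (wild-type replicates 1 and 2, *fbxl-5* replicates 1 and 3, *lin-29* replicate 1 and *lin-29; fbxl-5* replicate 2).

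For *rict-1* against wild-type, limma called the difference in the *fbxl-5(rhd43)* effect for 0 members in either direction (0.631% and 0.223% of all genes higher and lower). At an unadjusted p below 0.05, 12 members differed, edgeR called 0, and DESeq2 called 5: *cpr-1*, *cpz-2*, *lipl-5* and *asp-14* with a negative and *asp-17* with a positive difference. In limma *cpr-1*, *cpz-2* and *lipl-5* were at -0.74 ± 0.18, -0.77 ± 0.17 and -0.88 ± 0.19 (adjusted p = 0.0293, 0.0175 and 0.017). The 95% intervals of these log2 differences were -1.12 to -0.36, -1.12 to -0.42 and -1.27 to -0.48, all below 0. Without *rict-1; fbxl-5* replicate 3 the count was 1, *cpr-1*, with 59 called over all genes. With the replicate number as a block it was 1, *cpz-2*, in the fit of all libraries and 12 (5 higher and 7 lower) in the fit of the 4 genotypes compared, and without the block that fit gave 10. Over all genes, these fits called 148, 1173 and 819 in the same order, against 115 in the main fit.

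Between *lin-29* and *rict-1*, a contrast added after the values had been seen, the *fbxl-5(rhd43)* effect was lower in *lin-29* for 4 members and higher for 0 (0.616% and 0.148% of all genes): *cpr-1*, *cpr-5*, *asp-17* and *vha-6*. For *cpr-1* the log2 difference was -1.11 ± 0.18 (adjusted p = 0.00278), so the fall with *fbxl-5(rhd43)* was larger in *lin-29* than in *rict-1*, and the call was lost without *lin-29* replicate 2 (0.0102). For *vha-6* it was -1.45 ± 0.26 (adjusted p = 0.006), lost without any library except *lin-29* replicate 3 and *lin-29; fbxl-5* replicates 2 and 3 (up to 0.0192). The count of 4 was 11 without *lin-29; fbxl-5* replicate 3, 1 without *lin-29* replicate 2, and 2 without *lin-29* replicate 1, *rict-1* replicate 1 or 2 or any *rict-1; fbxl-5* library. Over all genes, these fits called 233, 60, 74, 60, 76, 68, 60 and 55 in that order, against 103 in the main fit.

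**Figure D5:**
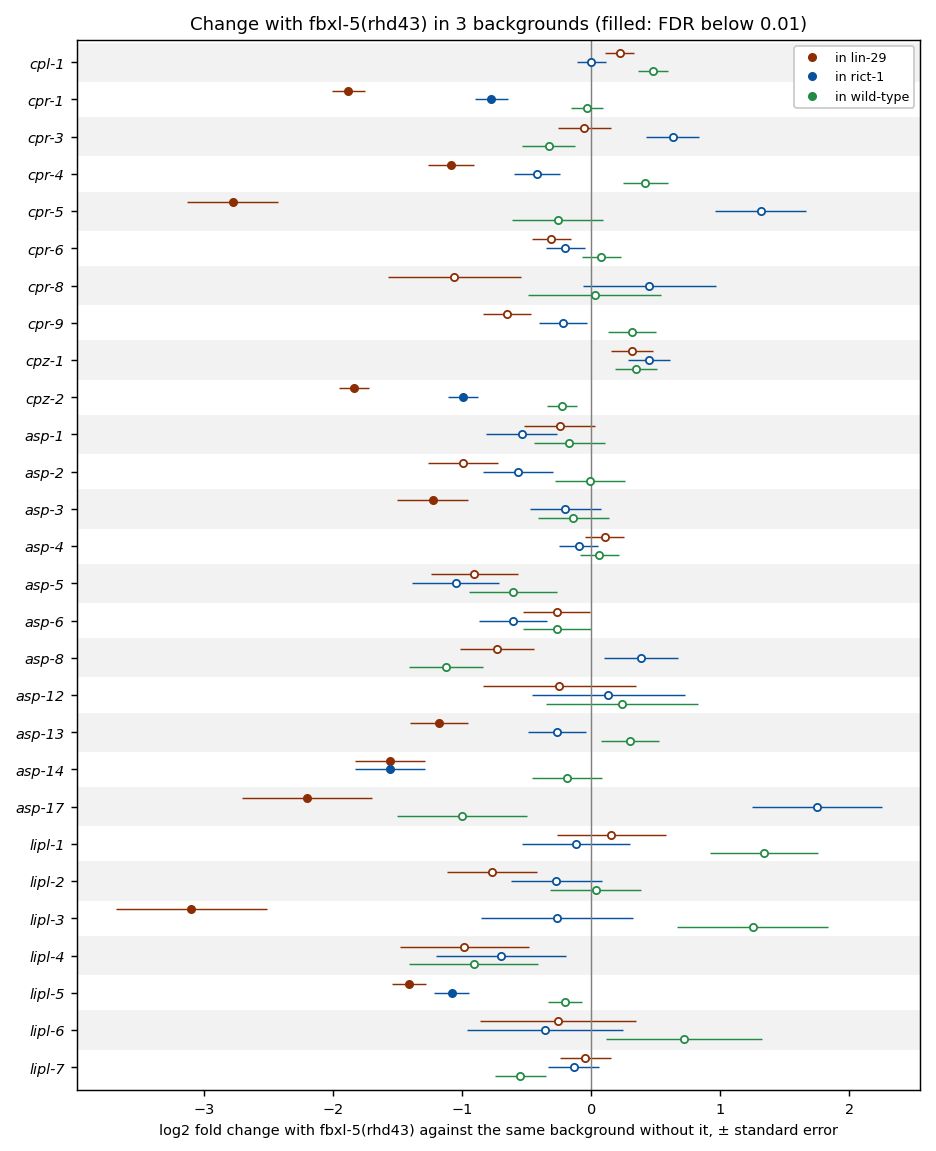
Log2 fold changes with *fbxl-5(rhd43)* against the same background without it (x axis, bars are standard errors) for the 28 hydrolase genes, in the *lin-29*, *rict-1* and wild-type backgrounds, with filled points where the adjusted p was below 0.01. 10 hydrolases are filled in *lin-29*, 4 in *rict-1* and 0 in wild-type, and *cpr-5* and *asp-17* lie on opposite sides of 0 in *lin-29* and *rict-1*.

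Other genes were taken from lists fixed alongside the members. One list held genes for other lysosomal enzymes, transporters and membrane proteins, and also further genes such as *lgg-1*, *lgg-2*, *lbp-8*, *glo-1* and *glo-4*. Of its 34 tested genes, 9 were higher and 0 lower in *rict-1* than in wild-type, 8 and 0 in *rict-1; fbxl-5*, 8 and 4 in *lin-29*, and 9 and 7 in *lin-29; fbxl-5*, with medians of 0.30, 0.23, 0.25 and -0.06 on the log2 scale. As shares of the 34, these counts stood above the higher calls over all genes in *rict-1* (10.7%) and *rict-1; fbxl-5* (7.36%), and near or below the calls over all genes in *lin-29* (22.6% higher, 18.4% lower). In *lin-29; fbxl-5* the calls over all genes were 19.5% in each direction. In *fbxl-5(rhd43)* alone, 1 of the 34 was higher than in wild-type and 0 lower (0.586% and 1.97% of all genes). The acid ceramidase *asah-1* had 826, 890.5 and 766 normalized counts in *lin-29; fbxl-5* and 2174, 2140.2 and 2108 in *lin-29*, 989, 1089.9 and 1059 in *rict-1; fbxl-5* and 1683, 1673 and 1792 in *rict-1*, and 371, 429 and 389 in wild-type, so that both double mutants lay between their single mutant and wild-type, as for *cpr-1*. It fell with *fbxl-5(rhd43)* in *lin-29* (log2 fold change -1.37, standard error 0.08, adjusted p = 3.81e-08) and in *rict-1* (log2 fold change -0.71, standard error 0.08, adjusted p = 1.10e-04), and the effect differed from that in wild-type in both (-1.78 with adjusted p = 5.89e-07, and -1.12 with adjusted p = 7.24e-05). These differences exceed the falls themselves, so the fitted *asah-1* effect in wild-type was a rise, unlike that of *cpr-1*. The glucocerebrosidase *gba-1* rose to 1632, 1605 and 2529 in *lin-29* and 2005, 1748 and 1939 in *rict-1*, against 247, 281 and 304 in wild-type (log2 fold change 2.76, standard error 0.15, adjusted p = 8.24e-10, and log2 fold change 2.77, standard error 0.15, adjusted p = 3.43e-09). The DNase II *nuc-1*, an enzyme that degrades DNA in lysosomes, was at 14.9, 50.2 and 545 in *lin-29; fbxl-5* and 24, 37.5 and 31.6 in *lin-29*, against 1402, 1554 and 1404 in wild-type (log2 fold change -5.53, standard error 0.85, adjusted p = 1.21e-04 for *lin-29*).

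Of 5 prolyl carboxypeptidases, serine proteases of the gut, 4 were lower in *lin-29; fbxl-5* than in *lin-29* and 0 higher (4.5% and 1.32% of all genes). *pcp-1* and *pcp-3* had 445, 419 and 677 and 342, 506 and 487 normalized counts in *lin-29; fbxl-5*, against 1575, 1710.4 and 1825 and 1319.5, 1409 and 1768 in *lin-29* (log2 fold change -1.76, standard error 0.14, adjusted p = 3.32e-07, and log2 fold change -1.76, standard error 0.14, adjusted p = 3.32e-07). No pcp gene was called in *rict-1* against wild-type or in *rict-1; fbxl-5* against *rict-1*. In the latter, *pcp-1* to *pcp-5* had log2 fold changes of 0.49, -0.94, 0.57, -0.65 and 0.12. Against wild-type, *pcp-1* was called higher in *rict-1; fbxl-5* (log2 fold change 0.55, adjusted p = 0.00881). The cystatin *cpi-2*, an inhibitor of cysteine cathepsins, was slightly higher in *rict-1*, at 3700.4, 4088 and 3695, than in wild-type, at 2633, 2845 and 2864 (log2 fold change 0.46, standard error 0.08, adjusted p = 2.98e-04), and in *lin-29* (log2 fold change 0.26, adjusted p = 0.00864), and *cpi-1* was called in no comparison by limma. The second B subunit gene *spe-5* was higher than in wild-type in both *lin-29* and both *rict-1* genotypes, by 0.43 to 0.69 on the log2 scale. The sperm marker list summed to 226 to 351 in *lin-29; fbxl-5*, 181 to 456 in *lin-29*, 152 to 340.2 in *rict-1; fbxl-5* and 59.9 to 80.1 in *rict-1*, against 35.1 to 67.8 in wild-type, and its part in the *spe-5* values was not tested.

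Among transcription factors known to act on these genes, *hlh-30* was higher in both *lin-29* and both *rict-1* genotypes. It had 2079.7, 2693 and 2219.6 normalized counts in *lin-29; fbxl-5*, 2027, 2229 and 2549 in *lin-29*, 1960.4, 1768 and 1919.5 in *rict-1; fbxl-5* and 1958, 1921 and 1957 in *rict-1*, against 1051, 1109 and 1197 in wild-type (log2 fold changes 1.05, 1.01, 0.75 and 0.80). *mxl-3*, a repressor of *lipl-1* and *lipl-3* in fed animals, was lower in *lin-29; fbxl-5*, at 391, 179 and 379.5, and in *lin-29*, at 282, 350.3 and 406, than in wild-type, at 744, 956 and 1339 (log2 fold changes -1.72 and -1.52, adjusted p = 8.12e-05 and 2.17e-04), and was not called in *rict-1* (adjusted p = 0.878). In *fbxl-5(rhd43)* alone *mxl-3* averaged 425, against 1013 in wild-type, without passing the test (log2 fold change -1.21, adjusted p = 0.0129). The intestinal GATA factor *elt-2* was higher in *rict-1; fbxl-5* (log2 fold change 0.95, adjusted p = 4.23e-04) and in *rict-1* (log2 fold change 0.86, standard error 0.15, adjusted p = 5.12e-04). *pqm-1* was higher in *lin-29; fbxl-5*, *lin-29*, *rict-1; fbxl-5* and *rict-1*, with log2 fold changes of 1.84, 2.42, 1.26 and 1.68. Of the 11 regulators, 0 was called in either direction between *rict-1; fbxl-5* and *rict-1*, and only *mxl-2* between *lin-29; fbxl-5* and *lin-29*, higher.

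In the WBcel235 annotation, 24 of the 48 members lie on chromosome V, 8 on IV, 7 on X and 3 each on I, II and III. No 2 members overlap, and 5 pairs of neighbours lie at distances of 272 to 892 bases. *asp-6*, *asp-12* and *asp-5* form a cluster on V from 8267511 to 8274044, with *asp-6* on the minus strand and *asp-12* and *asp-5* on the plus strand, 272 and 328 bases apart. *asp-6* and *asp-5* rose in *rict-1*, and *asp-12* between them was higher there as well without being called. *cpr-5* and *cpr-8* face away from each other on V, from 1132598 to 1139182. *asp-17*, at 19035723 to 19037322, and *asp-1*, at 19049562 to 19050752, lie on the same strand near the other end of V. The library kit does not mark strand, so reads of a gene and of an antisense partner cannot be told apart.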

How the data were processed

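PolyA RNA was sequenced by the authors as single-end 50 base reads from a TruSeq kit (version 2), with 3 libraries per genotype. Their processing notes name STAR, featureCounts (Subread) and DESeq2, without versions, and the WS260 annotation. The deposited signal is each gene's read count divided by a DESeq2 size factor. Whole reads were recovered from its steps for 100% of values (within 0.01 of a read), which gave 13434120 to 29733059 reads per library. Lower depth widens the error of low genes such as the lipases.

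Symbols came from the Ensembl 115 annotation of WBcel235, which named 92.7% of the IDs. For genes with a mean of at least 10, limma 3.58.1 (R 4.3.3) estimated 1 mean per genotype on log2(value + 1), with p-values adjusted over all genes (false discovery rate 0.01). edgeR 4.0.16 and DESeq2 1.42.0 on the recovered reads, TMM scaling, no filter, another pseudocount, fits of only the genotypes compared, a replicate block and omitted libraries were alternatives. The fit was tested on simulated data. Named genes were the 5 largest called changes per family and comparison, every member called in an interaction, and a fixed set of known members. Members and lists were chosen with earlier results of these data known. Same-numbered libraries of *rict-1; fbxl-5* and *rict-1* deviated together (correlations 0.646, 0.394 and 0.237), though the labels state no pairing. The main fit and the figures use no block, and fits with the replicate number as a block are given beside them. The 7 deposited tables of the authors' own comparisons (fold changes and p-values) and sequences of the members were not used here.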

Additional observations from a re-analysis of the deposited data

Results flagged for a closer look

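The effect of *fbxl-5(rhd43)* differed between the *lin-29(n333)* and wild-type backgrounds, by the test of the difference itself, for 7 members. The log2 differences (*lin-29* background minus wild-type background) were -1.85 for *cpr-1*, -1.51 for *cpr-4*, -2.52 for *cpr-5*, -1.61 for *cpz-2*, -4.35 for *lipl-3*, -1.21 for *lipl-5* and -1.46 for *vha-6*. In each case the value fell with *fbxl-5(rhd43)* in *lin-29*, while in wild-type the same mutation gave no called difference. *lipl-3* had reached the minimum mean only through its *lin-29* values. 3 of 5 intestinal markers were also called lower in this contrast (median of the 5 -1.43), and their part in it was not tested.

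Between the *lin-29(n333)* and *rict-1(mg360)* backgrounds the effect differed for 4 members, in a contrast added after the values had been seen. The log2 differences (*lin-29* background minus *rict-1* background) were -3.95 for *asp-17*, -1.11 for *cpr-1*, -4.09 for *cpr-5* and -1.45 for *vha-6*. For *cpr-1* the value was lower with *fbxl-5(rhd43)* in both backgrounds, for *vha-6* it was lower in *lin-29* and at -0.04 ± 0.18 (log2 fold change and standard error) in *rict-1*, and for *cpr-5* and *asp-17* the fitted effects had opposite signs. The *cpr-5* difference was called with each library left out in turn, and those of *asp-17*, *cpr-1* and *vha-6* were not.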

How the results depend on the processing

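The 102 called member fold changes kept their direction under all alternatives that were run. With only the genotypes compared in the fit, 40 of the 102 lost their call, and with a replicate block added to that fit 39 did. DESeq2, edgeR, TMM scaling, no filter on low values, the replicate block with all libraries and a pseudocount of 0.5 lost 1, 10, 4, 7, 3 and 0. The causes were not tested.

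Counts of called members that moved by over 1.5 times were these. With only the genotypes compared, they were 10 for *lin-29; fbxl-5* and 21 for *rict-1; fbxl-5* against wild-type, 9 for *fbxl-5* against wild-type, 2 for *lin-29; fbxl-5* against *lin-29*, 7 for *rict-1; fbxl-5* against *rict-1*, and, for the difference in the *fbxl-5* effect, 3 between *lin-29* and wild-type, 10 between *rict-1* and wild-type and 1 between *lin-29* and *rict-1*. Over all 13472 genes, these fits called 3347, 2694, 1888, 63, 427, 135, 819 and 32 in that order. The main fit called 5250, 1471, 345, 784, 187, 323, 115 and 103 of all genes. With the replicate block as well, the member counts were 14, 24, 11, 0, 15, 2, 12 and 0 in the same order. Over all genes, the block fits called 3891, 3108, 2518, 0, 1355, 139, 1173 and 31. The replicate block with all libraries gave 1 (*cpz-2*) for *rict-1* against wild-type in the *fbxl-5* effect and changed no other count by over 1.5 times. DESeq2 gave 2 for *fbxl-5* against wild-type, 5 for the *fbxl-5* effect between *rict-1* and wild-type and 7 between *lin-29* and *rict-1*. Over all genes, DESeq2 called 834, 460 and 342 there. Leaving out 1 library at a time gave 15 to 38 for *lin-29; fbxl-5* and 8 to 11 for *rict-1; fbxl-5* against wild-type, 13 to 29 for *lin-29; fbxl-5* against *lin-29*, 2 to 4 for *rict-1; fbxl-5* against *rict-1*, and 4 to 14, 0 to 1 and 1 to 11 for the 3 differences in the *fbxl-5* effect. Over all genes, these fits called 4092 to 5111, 791 to 975, 529 to 1321, 87 to 106, 161 to 450, 55 to 89 and 55 to 288 in that order. Same-numbered libraries did not deviate together throughout in the other comparisons, so the block there is only a second fit.

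A member without a call is not shown to be equal between genotypes. Members near the minimum level rest on few reads, so their fold changes are imprecise. The search for motifs in the members' promoters was not run.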
